A study of Mus musculus with 12 samples.

Results

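The B-cell identity genes are 35 genes that B lymphocytes use to read antigen, hold their lineage and present themselves to T cells. They are a list of symbols, drawn up with earlier results of these data known, and all 35 were found among the 45777 genes of the table. All 35 also passed the filter on low counts, under which 23585 genes could be tested. The libraries were made from CD4+ T cells of the mouse spleen, so these genes belong to a lineage that the labelled cell type does not name.

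CD4+ T cells of wild type Balb/c mice aged 7 weeks were stimulated for 3 days with anti-CD3 at 0.5 ug/ml, an antibody that triggers the T-cell receptor. The 12 libraries fall into 4 groups of 3: anti-CD3 alone, anti-CD3 with the bacterium Lactobacillus acidophilus (L. acidophilus), anti-CD3 with FK506, and anti-CD3 with both (the combination). All groups, the controls included, received anti-CD3. FK506 (tacrolimus) blocks the phosphatase calcineurin, and by that the activation of T cells through NFAT. The methods of the study describe heat-inactivated bacteria and an isolation of the T cells with magnetic beads, but they name C57BL/6 mice for the sequenced T cells and give another age. Labels and methods conflict here, and the labels are followed. Neither source says whether the 3 libraries of a group came from separate animals or cultures, so the p-values may measure technical spread only. These are bulk libraries: for every gene below, fewer cells of a type and less RNA per cell cannot be told apart.

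B cells carry an antigen receptor made of a membrane immunoglobulin and a signaling pair, CD79A and CD79B. Antigen binding activates Src-family kinases and SYK, and the signal runs through the adaptor BLNK to BTK. EBF1 and PAX5 set the B-lineage programme, while receptors for CD40 ligand and BAFF carry help and survival signals. In the spleen, B cells are the most common lymphocytes beside T cells.

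Promoters are shown for 5 members, because 3 of them hold a motif that was searched for and the remaining 2, Cd79a and Fcrl1, stand for a gene that was lower and a gene that was higher in the combination than with FK506. Each runs 5′ to 3′ on the gene's own strand, from 250 bases before to 50 bases after the start site (RefSeq, GRCm38.p6), with the matched motif in capitals.
Cd22, chr7:30878979-30879278, strand minus: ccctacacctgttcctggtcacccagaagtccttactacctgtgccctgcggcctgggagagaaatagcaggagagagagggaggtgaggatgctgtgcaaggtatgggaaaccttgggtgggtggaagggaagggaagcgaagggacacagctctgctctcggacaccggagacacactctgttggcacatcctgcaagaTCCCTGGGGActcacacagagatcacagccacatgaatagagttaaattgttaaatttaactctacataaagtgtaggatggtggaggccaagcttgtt
Vpreb3, chr10:75948050-75948349, strand plus: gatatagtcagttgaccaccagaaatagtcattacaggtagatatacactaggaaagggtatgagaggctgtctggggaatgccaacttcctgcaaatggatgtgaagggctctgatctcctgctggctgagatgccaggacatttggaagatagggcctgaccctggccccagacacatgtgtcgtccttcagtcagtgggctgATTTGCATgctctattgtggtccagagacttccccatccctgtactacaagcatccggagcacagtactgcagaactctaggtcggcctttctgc
Blnk, chr19:40994172-40994471, strand minus: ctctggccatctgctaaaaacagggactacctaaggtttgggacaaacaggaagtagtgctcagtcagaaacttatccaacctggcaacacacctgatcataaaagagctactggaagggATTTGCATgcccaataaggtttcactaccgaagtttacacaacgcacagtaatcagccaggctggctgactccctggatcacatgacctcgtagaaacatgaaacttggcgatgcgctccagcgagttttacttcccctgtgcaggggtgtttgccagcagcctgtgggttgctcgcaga
Cd79a, chr7:24897247-24897546, strand plus: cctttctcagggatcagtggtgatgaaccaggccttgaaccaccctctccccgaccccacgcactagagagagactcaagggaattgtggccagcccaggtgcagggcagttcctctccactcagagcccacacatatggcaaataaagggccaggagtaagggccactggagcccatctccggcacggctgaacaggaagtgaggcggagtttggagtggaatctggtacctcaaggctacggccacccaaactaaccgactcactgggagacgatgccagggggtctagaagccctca
Fcrl1, chr3:87376137-87376436, strand plus: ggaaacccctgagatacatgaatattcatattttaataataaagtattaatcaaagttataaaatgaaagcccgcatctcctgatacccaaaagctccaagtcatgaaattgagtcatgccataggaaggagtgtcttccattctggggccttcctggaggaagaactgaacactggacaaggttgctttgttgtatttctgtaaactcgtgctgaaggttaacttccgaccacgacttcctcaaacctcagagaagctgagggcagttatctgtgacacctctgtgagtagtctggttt

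The table of promoters held 34 promoters for 27 of the 35 members. It had no entry for Mzb1, Blk, Cd83, Cd86, Cd40, Cd24a, Ms4a1 and Cd79b. The searched motifs were TCCCNNGGGA, the palindromic core bound by EBF factors, and ATGCAAAT, the octamer bound by OCT factors and their coactivator OBF-1 (Pou2af1), each on both strands. The EBF core occurred in 297 of 32851 mouse promoters of this length (0.904%). Among the members it was found in Cd22, where it began 49 bases before the start site. The octamer occurred in 570 promoters (1.74%), and among the members in Vpreb3, 45 bases before the start site, and in Blnk, 130 bases before it, both times on the opposite strand. No match in the other windows says only that these letters are not there.

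The libraries held 45416397 to 64658165 counts, and the members took 0.0652 to 0.0852% of them in the anti-CD3 group, 0.0545 to 0.0598% in the L. acidophilus group, 0.179 to 0.292% in the FK506 group and 0.142 to 0.151% in the combination. The ranges of the 4 groups did not overlap. Libraries of a group differed beyond sampling noise and none was identical to another. FK506 replicate 3 was the lowest FK506 library for 33 of the 35 members, anti-CD3 replicate 1 was the highest of its group for 27 and L. acidophilus replicate 1 for 29, whereas the combination libraries were closer together in the members, with a median coefficient of variation over the members of 10.6% against 32.2% with FK506. The order of the libraries and this spread were counted over the members only. Over all genes combination replicate 1 differed more from replicates 2 and 3 (chi-square per degree of freedom 72.1 and 79.2) than these from each other (4.52). It was the lowest combination library for 10 of the 16 members largely restricted to B cells. A gene is called changed where edgeR's quasi-likelihood test gave a Benjamini-Hochberg adjusted p, taken over all 23585 genes, under 0.05 and the change was at least 2-fold. Fold changes are on the log2 scale with their standard error (SE), and levels are FPKM, a unit scaled to transcript length. Values of 3 libraries are given in the order of replicates 1, 2 and 3.

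**Figure D1:**
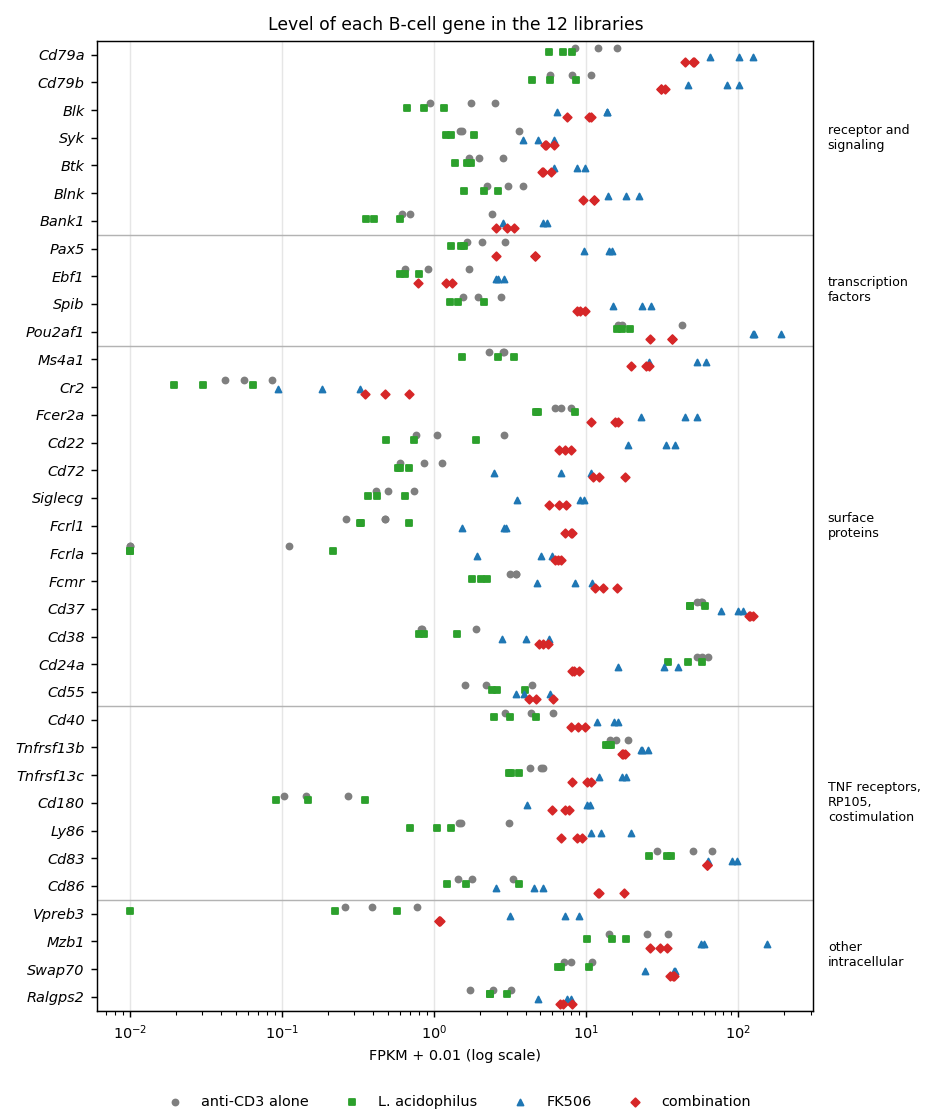
Level of the 35 B-cell genes in each of the 12 libraries, as FPKM + 0.01 on a log axis, grouped by role, 1 point per library. For Cd79a the FK506 libraries lie at 65.7 to 126 FPKM and the anti-CD3 libraries at 8.42 to 15.9, with the combination between them, whereas for Cd24a the combination libraries are the lowest.

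FK506 was accompanied by higher levels of most B-cell genes. Against anti-CD3 alone, 28 of the 35 members rose and 1, Cd24a, fell, whereas 6.44% of all genes tested were called higher and 4.12% lower. The median log2 difference of the members was 1.83, against -0.002 over all genes tested. The rises ran from Syk at 1.04 to Fcrla at 6.51. Among the 16 members that are largely restricted to B cells in the blood lineages, 15 rose (median 2.51), and Cr2 did not pass. Among the 19 that T cells or myeloid cells also use, 13 rose and 1 fell (median 1.58).

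L. acidophilus without FK506 gave no call. Of the 35 members 0 passed by edgeR, where 0.187% of all genes were called in either direction. An unadjusted p under 0.05 was reached by 12 members and by 14.8% of all genes. DESeq2 called 2 members lower, Bank1 and Ly86, and 1.86% of all genes in either direction. The members had a median of -0.55, and 32 of them had a negative value. Bank1 had the most negative value, -1.53 (SE 0.48, adjusted p = 0.176). Cd79a stood at -0.90 (SE 0.26, adjusted p = 0.144) and was called without anti-CD3 replicate 3, at -1.13 (adjusted p = 0.0441).

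In the combination, 21 members were higher and 1, Cd24a, was lower than with anti-CD3 alone, against 13.8% and 10.8% of all genes. The median was 1.59. This comparison shares its control libraries with the FK506 comparison, so the values of both are given side by side. Against L. acidophilus alone, 27 members were higher in the combination and Cd24a was lower, against 9.93% and 6.64% of all genes, with a median of 2.2.

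**Figure D2:**
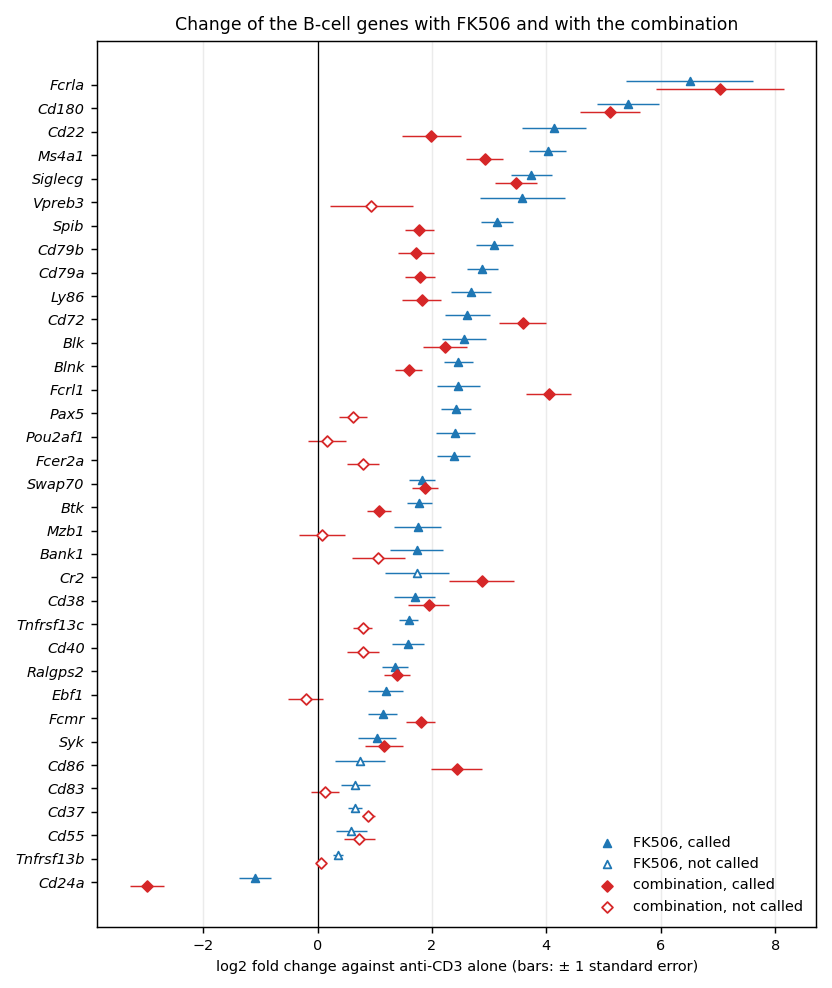
Log2 fold change of each member against anti-CD3 alone, with FK506 (triangles) and in the combination (diamonds), bars ± 1 SE, filled where called. Both comparisons use the same 3 anti-CD3 libraries. Fcrla and Cd180 lie farthest to the right, Cd24a is the one gene left of 0 in both, and the transcription factors Pax5, Pou2af1 and Ebf1 are filled for FK506 and open for the combination.

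With L. acidophilus added to FK506, 12 of the 35 members were lower than with FK506 alone and 2 were higher (Cd86 and Fcrl1), against 3.60% and 3.84% of all genes tested. The number higher is near that background. The median of the members was -0.66, against 0.03 over all genes. Of the 16 restricted members, 9 were lower and 1 was higher (median -1.09). Leaving out FK506 replicate 1, the library with the highest members' share of counts, left 8 members called lower. The other 4 stood at -0.88 (Cd79a), -0.87 (Ms4a1), -1.06 (Mzb1) and -2.34 (Vpreb3). Without FK506 replicate 3 or combination replicate 1, 1 member instead of 2 was called higher.

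**Figure D3:**
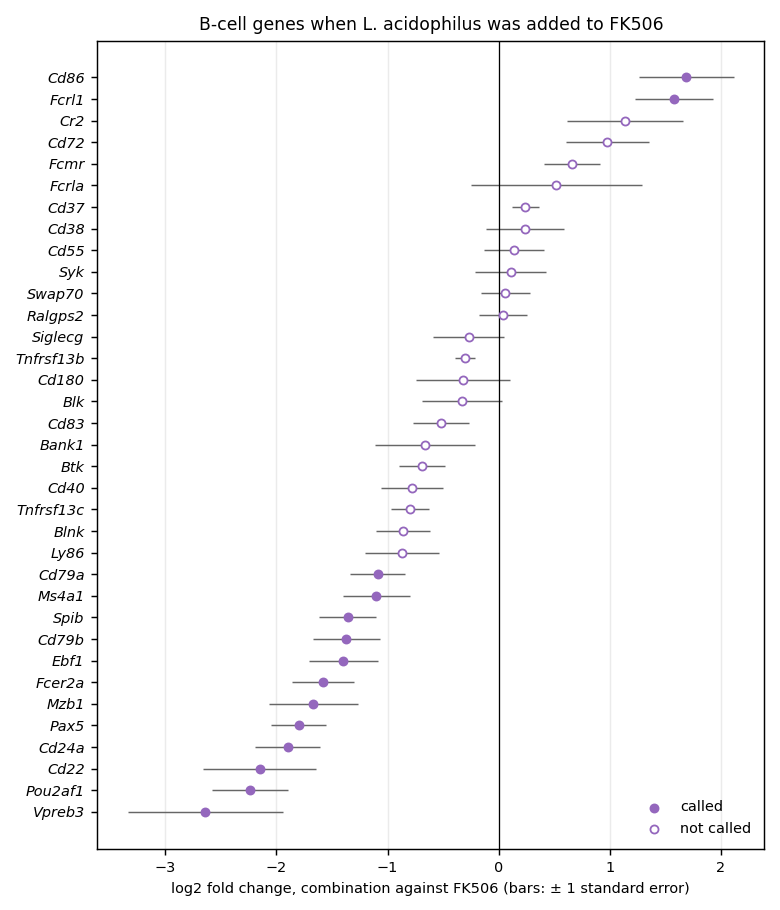
Log2 fold change of each member in the combination against FK506 alone, bars ± 1 SE, filled where called, sorted by size. Cd86 (1.69) and Fcrl1 (1.58) are the filled points on the right, and 12 filled points from Cd79a (-1.09) to Vpreb3 (-2.64) lie on the left.

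The antigen receptor chain Cd79a (gene at chr7:24897497-24901858) was at 15.9, 11.9 and 8.42 FPKM with anti-CD3 alone and at 8.04, 7.00 and 5.68 with L. acidophilus. It was at 126, 102 and 65.7 FPKM with FK506 and at 44.9, 50.4 and 50.9 in the combination. All FK506 libraries lay above all combination libraries, and those lay above the 6 libraries without FK506. The rise with FK506 was 2.88 on the log2 scale (SE 0.27, 7.38-fold, adjusted p = 0.000114), and that in the combination was 1.79 (SE 0.26, adjusted p = 0.000203). The combination was 1.09 lower than FK506, a log2 difference of -1.09 (SE 0.25, adjusted p = 0.0115), which fell under the 2-fold limit without FK506 replicate 1 (-0.88) and in limma on log2(FPKM + 1) (-0.94) or log2(FPKM + 0.1) (-0.96), and was also lost without TMM factors (-1.0).

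Its partner Cd79b was at 10.8, 8.11 and 5.81 FPKM with anti-CD3 alone, at 8.57, 5.76 and 4.41 with L. acidophilus, at 101, 84.0 and 46.9 with FK506, and at 31.0, 32.8 and 31.0 in the combination. The order of the groups was as for Cd79a, with the 2 groups without FK506 overlapping. The log2 change was 3.09 with FK506 (SE 0.32, adjusted p = 0.00018), 1.72 in the combination (SE 0.31), and -1.37 between the combination and FK506 (SE 0.30, adjusted p = 0.0089).

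Among the signaling members, 7 of 7 receptor and signaling genes rose with FK506 (median 2.46) and 6 of 7 in the combination (median 1.59). Only 2 of 7, both receptor chains, were lower in the combination than with FK506. The shares of all genes in these 3 counts were 6.44%, 13.8% and 3.60%. The Src-family kinase Blk was at 13.7, 13.7 and 6.41 FPKM with FK506 and at 7.53, 10.4 and 10.7 in the combination, so the groups overlapped, and both stood above the 0.937 to 2.51 of anti-CD3 alone. Its rise was 2.56 with FK506 (SE 0.38) and 2.23 in the combination (SE 0.38). The adaptor Blnk, which links SYK to downstream enzymes, rose by 2.46 with FK506 (SE 0.25) and by 1.59 in the combination (SE 0.24). The combination stood at -0.86 against FK506 (SE 0.24), under the 2-fold limit, and was called without FK506 replicate 3, at -1.01.

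Btk, the Tec kinase downstream of BLNK, was 1.78 higher with FK506 (SE 0.22) and 1.08 higher in the combination (SE 0.21), the latter 0.92 without anti-CD3 replicate 3. Syk, which myeloid cells also use, was at 3.61, 1.47 and 1.52 FPKM with anti-CD3 alone, at 6.10, 4.84 and 3.81 with FK506, and at 6.12, 5.34 and 5.43 in the combination. Its value of 1.04 with FK506 (SE 0.33, adjusted p = 0.0427) was called, but the call was lost in 9 of the 12 fits without 1 library (0.81 to 1.06 in those), and that in the combination, 1.16 (SE 0.33), without anti-CD3 replicate 2 (0.95) or 3 (0.92). The scaffold Bank1 rose by 1.73 with FK506 (SE 0.47, adjusted p = 0.0231), a call lost without anti-CD3 replicate 2 (1.45) or 3 (1.39) or FK506 replicate 1 (1.62) or 2 (1.57). In the combination Bank1 stood at 1.06 (SE 0.46, adjusted p = 0.081), a value that passed in DESeq2 (1.11), without TMM factors (1.27), in limma on log2(FPKM + 0.1) (1.46) and without anti-CD3 replicate 1 (2.01), in which it was at 2.38 FPKM against 0.686 and 0.608 in the other anti-CD3 libraries.

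The 4 transcription factors were called higher with FK506 in 4 of 4 cases (median 2.42), against 6.44% of all genes. In the combination 1 of 4 was called higher (median 0.39), against 13.8% of all genes. All 4 of 4 were lower in the combination than with FK506 (median -1.60), against 3.60% of all genes. Pax5, which commits progenitors to the B lineage, was at 2.90, 1.63 and 2.06 FPKM with anti-CD3 alone, at 14.7, 14.1 and 9.75 with FK506, and at 2.54, 4.64 and 4.60 in the combination. The combination libraries overlapped with anti-CD3 alone and lay below every FK506 library. The log2 change of Pax5 was 2.42 with FK506 (SE 0.26, adjusted p = 0.000189), 0.62 in the combination (SE 0.25, adjusted p = 0.0609) and -1.80 between the combination and FK506 (SE 0.25, adjusted p = 0.00085).

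Pou2af1, the octamer coactivator OBF-1, was at 42.8, 17.1 and 16.2 FPKM with anti-CD3 alone and at 19.4, 17.3 and 16.0 with L. acidophilus. With FK506 it reached 191, 127 and 125 FPKM, and in the combination 26.2, 36.6 and 36.9. It rose by 2.41 with FK506 (SE 0.34, adjusted p = 0.000856) and the combination was at -2.24 against FK506 (SE 0.34, adjusted p = 0.00135). Against anti-CD3 alone the combination stood at 0.17 (SE 0.33, adjusted p = 0.719), with anti-CD3 replicate 1 above all combination libraries.

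Spib, an Ets factor of B cells and plasmacytoid dendritic cells, was the transcription factor that was called in the combination. It was at 1.53 to 2.73 FPKM with anti-CD3 alone, at 23.4, 26.7 and 15.1 with FK506 and at 8.73, 9.18 and 9.81 in the combination, 3 levels that did not overlap. Its change was 3.14 with FK506 (SE 0.28), 1.78 in the combination (SE 0.26) and -1.36 between them (SE 0.26, adjusted p = 0.0042). Ebf1, which acts before PAX5 in B-cell development, was low, at 0.638 to 1.69 FPKM with anti-CD3 alone, 2.56 to 2.86 with FK506 and 0.770 to 1.31 in the combination. It rose by 1.19 with FK506 (SE 0.30, adjusted p = 0.018), a call lost without anti-CD3 replicate 2 (0.93) or 3 (1.06) or FK506 replicate 2 (1.15). The combination stood at -0.21 against anti-CD3 alone (SE 0.30), a sign that turned with FPKM-based fits and without anti-CD3 replicate 1, and at -1.40 against FK506 (SE 0.31, adjusted p = 0.0085), which was under 2-fold by limma on log2(FPKM + 1) (-0.83).

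Of the 13 members listed as surface markers, coreceptors and inhibitory receptors, among them Fcrla, which stays inside the cell, 9 rose and 1 fell with FK506, and 9 rose and 1 fell in the combination. Between the combination and FK506 4 were lower and 1 was higher, around a median of 0.24, against 0.03 over all genes. Of all genes tested, 3.60% were called lower and 3.84% higher in that comparison. With FK506 6.44% of all genes were called higher and 4.12% lower, and in the combination 13.8% and 10.8%. Ms4a1, which encodes CD20, was at 2.82, 2.30 and 2.88 FPKM with anti-CD3 alone and at 3.37, 2.64 and 1.51 with L. acidophilus. It was at 61.2, 53.7 and 26.1 FPKM with FK506 and at 19.6, 24.6 and 25.9 in the combination. FK506 replicate 3 lay just above the highest combination library. The rise was 4.02 with FK506 (SE 0.33, 16.2-fold, adjusted p = 9.02e-05) and 2.92 in the combination (SE 0.32, adjusted p = 3.41e-05). The difference of -1.10 between them (SE 0.30, adjusted p = 0.0238) lost its call without FK506 replicate 1 (-0.87) or 2 (-0.99) and without combination replicate 1 (-1.0), 2 (-1.13) or 3 (-1.16). It was lost too without TMM factors (-1.0) and in limma on log2(FPKM + 1) (-0.90) or log2(FPKM + 0.1) (-0.93).

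Cd22, an inhibitory sialic acid receptor whose promoter holds the EBF core shown above, was at 2.87, 0.752 and 1.03 FPKM with anti-CD3 alone. It was at 38.5, 33.3 and 18.9 FPKM with FK506 and at 6.60, 8.01 and 7.28 in the combination. The 3 levels did not overlap. The change was 4.13 with FK506 (SE 0.56, adjusted p = 0.000646), 1.99 in the combination (SE 0.52, adjusted p = 0.00847) and -2.15 between them (SE 0.51, adjusted p = 0.013). Fcer2a, the low-affinity IgE receptor CD23 of follicular B cells, was at 53.6, 44.8 and 23.1 FPKM with FK506 and at 10.8, 15.6 and 16.3 in the combination, against 6.25 to 7.97 with anti-CD3 alone. It rose by 2.38 with FK506 (SE 0.29) and was at 0.80 in the combination (SE 0.28, adjusted p = 0.0352, under 2-fold), with -1.58 between them (SE 0.28, adjusted p = 0.00286).

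Of the other surface receptors, 1 was called higher in the combination than with FK506. This was Fcrl1, an Fc receptor-like protein of mature B cells. It was at 0.463, 0.252 and 0.466 FPKM with anti-CD3 alone, at 2.97, 2.86 and 1.52 with FK506 and at 8.12, 7.31 and 7.98 in the combination. The combination libraries lay above all others. Its change was 2.46 with FK506 (SE 0.38), 4.04 in the combination (SE 0.39, adjusted p = 1.88e-05) and 1.58 between them (SE 0.35, adjusted p = 0.0092).

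Cd72, an inhibitory coreceptor, was at 6.86, 10.8 and 2.46 FPKM with FK506 and at 17.9, 11.1 and 12.2 in the combination. The combination exceeded FK506 by 0.98 (SE 0.37, adjusted p = 0.0832), which passed without FK506 replicate 2 (1.40, adjusted p = 0.0279) and in DESeq2 (1.01). Cr2, the complement receptor CD21, was the lowest member in both groups with FK506, at 0.0323 to 0.0755 FPKM with anti-CD3 alone, 0.0849 to 0.315 with FK506 and 0.342 to 0.678 in the combination. It was called in the combination, at 2.87 (SE 0.57, adjusted p = 0.00169), though not by limma on log2(FPKM + 1), where it was at 0.50 under the 2-fold limit. It stood at 1.73 with FK506 (SE 0.56, adjusted p = 0.0503). That value passed without anti-CD3 replicate 1 (2.13), L. acidophilus replicate 1 or 2 (1.73) or FK506 replicate 3 (2.11), and in DESeq2 (1.74), without TMM factors (1.84), with filterByExpr (1.74) and with no filter (1.75).

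Fcmr, the Fc receptor for IgM, was at 3.45, 3.46 and 3.15 FPKM with anti-CD3 alone and at 2.23, 1.76 and 2.03 with L. acidophilus. It was at 8.43, 11 and 4.77 FPKM with FK506 and at 15.9, 12.9 and 11.4 in the combination. The L. acidophilus libraries were the lowest and the combination libraries the highest, each without overlap. Its rise was 1.14 with FK506 (SE 0.25, adjusted p = 0.00897), or 0.86 without FK506 replicate 2, and 1.80 in the combination (SE 0.26, adjusted p = 0.000177). Siglecg, an inhibitory relative of CD22, was at 3.53 to 9.67 FPKM with FK506 and 5.69 to 7.40 in the combination, and rose by 3.74 (SE 0.36) and 3.47 (SE 0.36).

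Fcrla, an Fc receptor-like protein, had 14 counts in anti-CD3 replicate 1 and 0 in the other 2 anti-CD3 libraries. It reached 5.95, 5.03 and 1.92 FPKM with FK506 and 6.85, 6.56 and 6.21 in the combination. The fitted changes, 6.51 (SE 1.11) and 7.03 (SE 1.12), depend on how counts of 0 are treated, and were 11.76 and 12.28 without anti-CD3 replicate 1. Cd38, an NAD-consuming ectoenzyme that activated T cells also carry, rose by 1.70 with FK506 (SE 0.36) and by 1.94 in the combination (SE 0.36). The tetraspanin Cd37, widely used by lymphocytes, was at 54.0 to 57.6 FPKM with anti-CD3 alone, 76.8 to 108 with FK506 and 117 to 126 in the combination, with changes of 0.65 (SE 0.12) and 0.89 (SE 0.12) that passed the p but not the 2-fold limit. Cd55, a complement regulator of most blood cells, stood at 0.59 with FK506 (SE 0.27) and 0.73 in the combination (SE 0.27) and passed both without anti-CD3 replicate 1 (1.01 and 1.14).

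Cd24a, a surface glycoprotein that activated T cells also express, went the other way. It was at 57.5, 62.9 and 53.5 FPKM with anti-CD3 alone and at 34.7, 46.7 and 58.0 with L. acidophilus. It was at 40, 16.1 and 32.7 FPKM with FK506 and at 8.98, 8.30 and 8.08 in the combination. The combination libraries were the lowest of all 12. The log2 change was -1.09 with FK506 (SE 0.28, adjusted p = 0.0176), -2.98 in the combination (SE 0.30, adjusted p = 2.05e-05) and -1.90 between them (SE 0.29, adjusted p = 0.00124). The call with FK506 was lost without FK506 replicate 2 (-0.79), without anti-CD3 replicate 2 (-1.0) and without the TMM factors (-0.98).

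Of the 7 TNF receptors, RP105 components and costimulatory molecules, 4 rose with FK506 and 3 in the combination, against 6.44% and 13.8% of all genes. Cd180 (RP105), a Toll-like receptor homologue, was at 0.260, 0.0928 and 0.134 FPKM with anti-CD3 alone, at 10.2, 10.6 and 4.07 with FK506 and at 5.92, 7.26 and 7.75 in the combination. FK506 and combination overlapped, with both far above anti-CD3 alone, at 5.43 (SE 0.54) and 5.11 (SE 0.53). Ly86 (MD-1), the partner that RP105 needs at the surface, rose by 2.69 with FK506 (SE 0.35) and by 1.82 in the combination (SE 0.34).

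Tnfrsf13c, the BAFF receptor that carries the survival signal of mature B cells, rose by 1.59 with FK506 (SE 0.17, adjusted p = 0.000189) and stood at 0.79 in the combination (SE 0.17, adjusted p = 0.0025, under 2-fold). Cd40, the receptor for T-cell help, rose by 1.58 with FK506 (SE 0.28) and stood at 0.80 in the combination (SE 0.28), or 1.11 and called without anti-CD3 replicate 2. Tnfrsf13b, the BAFF and APRIL receptor TACI, was at 14.4 to 19.0 FPKM with anti-CD3 alone, 23.1 to 25.7 with FK506 and 17.2 to 17.9 in the combination, and its change of 0.36 with FK506 (SE 0.09, adjusted p = 0.0178) stayed under 2-fold.

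Cd86, a ligand of CD28 on activated antigen-presenting cells, had another order. It was at 3.30, 1.42 and 1.77 FPKM with anti-CD3 alone, at 5.21, 4.51 and 2.55 with FK506 and at 17.8, 12.1 and 11.9 in the combination. The combination libraries were above all others, while FK506 and anti-CD3 alone overlapped. The change was 0.74 with FK506 (SE 0.43, adjusted p = 0.253), 2.43 in the combination (SE 0.44, adjusted p = 0.000946) and 1.69 between them (SE 0.43, adjusted p = 0.0179), the last not called without FK506 replicate 3 (1.44) or combination replicate 1 (1.44). Cd83, a surface protein of activated B cells and dendritic cells that T cells also induce, was at 29.1, 67.6 and 50.7 FPKM with anti-CD3 alone and 62.0 to 62.5 in the combination and was called in no comparison.

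The other intracellular members rose with FK506 in 4 of 4 cases and in the combination in 2 of 4, against 6.44% and 13.8% of all genes. Vpreb3, a partner of immunoglobulin chains in the endoplasmic reticulum whose promoter holds an octamer, was at 8.94, 7.27 and 3.13 FPKM with FK506 and at 1.07, 1.09 and 1.07 in the combination, against 0.249 to 0.759 with anti-CD3 alone. The 3 levels did not overlap. Its change was 3.58 with FK506 (SE 0.74, adjusted p = 0.00624), 0.94 in the combination (SE 0.72, adjusted p = 0.317) and -2.64 between them (SE 0.70, adjusted p = 0.0211). The last call was lost without FK506 replicate 1 (-2.34) or 2 (-2.55) or combination replicate 1 (-2.68), 2 (-2.62) or 3 (-2.63).

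Mzb1, a chaperone of antibody-secreting and marginal zone B cells, was at 154, 59.9 and 57.3 FPKM with FK506 and at 26.4, 30.7 and 34.0 in the combination, the latter within the 14.1 to 34.7 of anti-CD3 alone. It rose by 1.75 with FK506 (SE 0.41, adjusted p = 0.0112) and stood at -1.67 between the combination and FK506 (SE 0.40, adjusted p = 0.0143), or -1.06 and not called without FK506 replicate 1. Swap70, a protein of B-cell migration and class switching, rose by 1.83 with FK506 (SE 0.23) and by 1.88 in the combination (SE 0.23). Ralgps2, an exchange factor for Ral, rose by 1.35 with FK506 (SE 0.23) and by 1.39 in the combination (SE 0.23).

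An interaction term asked whether the bacterium had the same effect in the presence of FK506 as in its absence. Its value is the excess of the combination over both single effects added together, and the threshold was an adjusted p of 0.05 with no limit on the fold. By edgeR 1 member, Fcmr, was above the sum, at 1.48 (SE 0.36, adjusted p = 0.0404), and 0 were below, against 1.35% and 3.00% of all genes tested. An unadjusted p under 0.05 was reached by 12 members and by 19.6% of all genes. DESeq2 called 4 members above and 4 below, and 10.1% of all genes in either direction. The Fcmr call was lost in 11 of the 12 fits that left out a library, with 1.20 to 1.59 there. Pou2af1 stood at -1.62 (SE 0.47, adjusted p = 0.0747) and passed in DESeq2 (-1.58) and without anti-CD3 replicate 1 (-2.26). Cd24a stood at -1.49 (SE 0.39, adjusted p = 0.0537) and passed in DESeq2 (-1.45), with filterByExpr (-1.49) or no filter (-1.50) and without FK506 replicate 2 (-1.79) or L. acidophilus replicate 1 (-1.67). Cd86 at 1.80 (SE 0.60), Fcrl1 at 1.54 (SE 0.51) and Cd72 at 1.67 (SE 0.54) did not pass by edgeR, and did in DESeq2 (1.84, 1.58 and 1.70). Without L. acidophilus replicate 1 Cd86 (2.40) and Fcrl1 (2.1) passed, as did Cd72 without FK506 replicate 2 (2.09).

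The level of each member was also set against Cd79a in the same library. These ratios are a description with no test, and their divisor was itself lower in the combination than with FK506. Of the 34 other members, 17 had ratios above those of every FK506 library in all combination libraries, 6 had ratios below them and 11 overlapped. Over the other 23584 genes tested, 53.6% had higher ratios, 1.59% lower ones and 44.8% overlapped, so the members with higher ratios are near the background. Among the 11 that overlapped, Ms4a1 was at 47.0% of Cd79a with FK506 and 47.7% in the combination on average, and Blnk at 19.0% and 21.9%. Others of the 11 moved more: Cd24a went from 32.4% to 17.4%, Mzb1 from 89.4% to 62.2% and Bank1 from 4.62% to 6.16%. Ms4a1 was at 23.7% with anti-CD3 alone. Among the 6 lower ones, Vpreb3 went from 6.32% with FK506 to 2.22% in the combination, Pou2af1 from 155% to 67.8%, Cd22 from 30.7% to 15% and Pax5 from 13.4% to 7.97%. Among the 17 higher ones, Fcrl1 went from 2.49% to 16.1%, Cd86 from 4.14% to 29.0%, Cd72 from 6.58% to 28.6% and Fcmr from 8.25% to 27.9%. With anti-CD3 alone Fcmr was at 29.3% and Cd86 at 17.9%, above their mean with FK506. Pou2af1, Cd86, Cd72 and Fcmr are among the members that T cells or myeloid cells also use, so their ratio is not a share of B-cell transcripts.

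**Figure D4:**
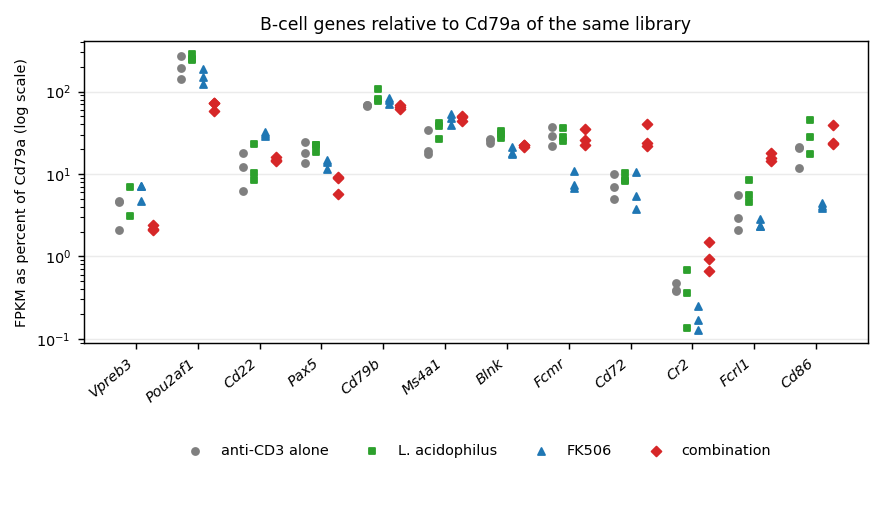
FPKM of 12 members as a percent of Cd79a in the same library, on a log axis, 1 point per library and no test. Ms4a1 and Blnk overlap between FK506 and the combination. Vpreb3, Pou2af1, Cd22 and Pax5 are lower in the combination, and Fcmr, Cd72, Cr2, Fcrl1 and Cd86 are higher in it.

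The immunoglobulin genes lie outside the member list. Ighm, the constant region of IgM, was at 116, 80.2 and 66.2 FPKM with anti-CD3 alone, at 1260, 723 and 601 with FK506 and at 619, 725 and 732 in the combination. The FK506 and combination libraries of Ighm overlapped, with a difference of -0.40 (SE 0.34, adjusted p = 0.449), and Ighd behaved alike at -0.63 (SE 0.33, adjusted p = 0.208).

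The constant regions of switched antibody classes were singled out after their values were seen. Ighe, the IgE constant region, was at 20.6, 4.42 and 10.0 FPKM with FK506 and at 0.130, 0.256 and 0.457 in the combination, a difference of -5.46 (SE 0.65, adjusted p = 0.000338). Ighg1 was at 108, 61.1 and 79.2 FPKM with FK506 and at 3.59, 11.7 and 12.0 in the combination, a difference of -3.29 (SE 0.48, adjusted p = 0.0011). These were the 2 of 12 constant genes called lower than with FK506, while 11 of the 12 had a negative value. Ighg2c was at 1.01, 0.335 and 0.623 FPKM with FK506 and at 0, 0.316 and 0.315 in the combination, which did not pass. Ighg3 was at 10.8, 7.93 and 4.34 FPKM with FK506 and at 8.19, 6.43 and 6.59 in the combination, and Igha at 7.73, 0.251 and 0.485 and at 9.0, 1.33 and 0.996, so both overlapped. Counts of immunoglobulin constant genes can be split between similar copies.

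**Figure D5:**
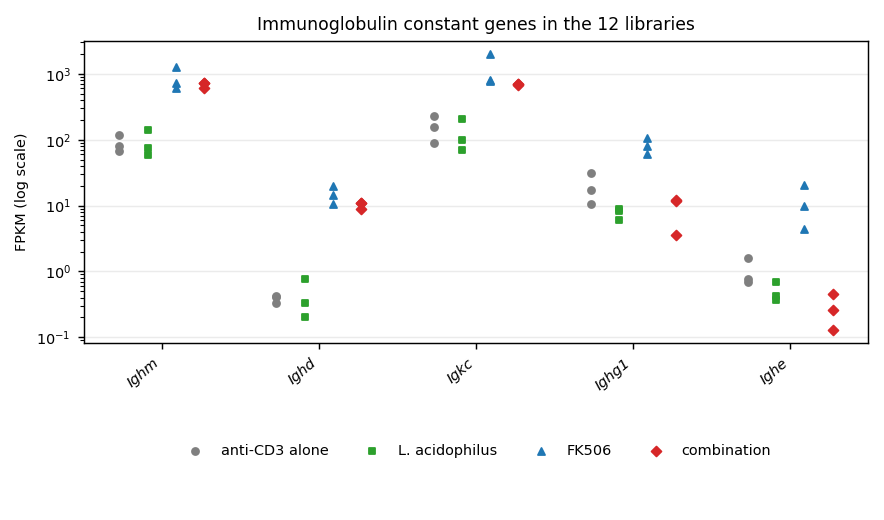
FPKM of 5 immunoglobulin constant genes in the 12 libraries, on a log axis, 1 point per library. FK506 and combination points overlap for Ighm and lie apart for Ighg1 and Ighe, where the combination is lower.

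Other genes of these pathways were counted from lists chosen, like the members, with earlier results of these data known. Of all genes tested, 6.44% were called higher and 4.12% lower with FK506, and 13.8% and 10.8% in the combination. Against FK506, 3.84% were called higher and 3.60% lower in the combination. L. acidophilus alone gave 0.187% in either direction. Of 20 further antigen receptor pathway genes, many shared with T cells, 5 rose with FK506 and 5 in the combination, with medians of 0.44 and 0.25. Of 14 further B-cell transcription factors, 8 rose with FK506 and 6 rose and 1 fell in the combination, while 3 were lower in the combination than with FK506. Of 12 immunoglobulin constant genes tested, 9 rose with FK506, and 7 rose and 3 fell in the combination. Among those that fell, Ighg1 lost its call in 7 alternatives and Ighe in 3. The 9 plasma cell genes were mixed, with 2 higher and 1 lower with FK506 and 2 higher and 3 lower in the combination. Of 9 germinal centre genes, 4 rose with FK506 and 1 with L. acidophilus, 2 rose and 1 fell in the combination, and 1 was lower in the combination than with FK506. Of 8 marginal zone and follicular genes, 4 rose with FK506 and 6 in the combination, and 2 were higher in it than with FK506. Of 8 early B-lineage genes 5 could be tested, of which 1 rose with FK506, 2 rose and 1 fell in the combination, and 1 was higher in it than with FK506. Of 10 MHC class II genes, which B cells share with other antigen-presenting cells, 9 rose with FK506 and 8 in the combination, and 4 were lower in the combination than with FK506.

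Markers of other cell types were measured in the same libraries. The T-cell genes were the highest of these lists, with 14 genes summing to 2080 to 3230 FPKM. With FK506 1 of 14 was called higher, near the 6.44% of all genes tested. Cd3g, the most abundant on average over all 12 libraries, was at 193 to 386 FPKM with anti-CD3 alone, 216 to 249 with FK506 and 339 to 412 in the combination. Cd3e was at 136 to 162 FPKM with anti-CD3 alone, 173 to 208 with FK506 and 287 to 306 in the combination, and Cd4 at 139 to 149, 131 to 154 and 237 to 256. Of 14 myeloid and dendritic cell genes, 7 were at 0 in every anti-CD3 library, S100a8 was at 0 in all 12, and their sum was 2.60 to 4.24 FPKM in the anti-CD3 libraries, 4.02 to 8.20 in those with L. acidophilus, 6.51 to 20.8 in those with FK506 and 49.9 to 77.7 in the combination. Of the 11 that could be tested, 7 rose with FK506 and 8 in the combination, against 6.44% and 13.8% of all genes. In the combination 5 were higher and 1 was lower than with FK506, against 3.84% and 3.60% of all genes. Cd68, the highest of them on average over all 12 libraries, was at 2.01 to 3.38 FPKM with anti-CD3 alone. It was at 4.22 to 10.2 FPKM with FK506 and at 25.4 to 27.3 in the combination, where Lyz2 exceeded it in replicate 1 (30.8). The 5 NK cell genes summed to 0.444 to 0.803 FPKM with anti-CD3 alone, 2.94 to 8.16 with FK506 and 6.14 to 14.3 in the combination, nearly all of it Eomes, which activated T cells also express, with Klra8 at 0 in all 12 libraries. Both CD8 genes summed to 2.21 to 5.14 FPKM with anti-CD3 alone, 4.63 to 9.02 with FK506 and 4.34 to 5.01 in the combination. Cd8b1, the more abundant, was at 2.1 to 4.88, 3.99 to 6.85 and 4.14 to 4.48 FPKM. Cd8a was called higher with FK506 and lower in the combination than with FK506, at 0.103 to 0.282, 0.641 to 2.18 and 0.195 to 0.534 FPKM. The part of these other cells in the members' changes, for Cd86, Syk and Ly86 as for the rest, was not tested. For comparison, the members largely restricted to B cells had sums of 38.8 to 63.0 FPKM in the anti-CD3 libraries and 25.9 to 40.2 in the L. acidophilus libraries. Their sums were 250 to 498 FPKM in the FK506 libraries and 170 to 198 in the combination libraries. These sums leave out the immunoglobulin constant genes. The 12 of these reached 180 to 404, 143 to 389, 1670 to 3770 and 1510 to 1640 FPKM in the same order of groups.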

How the data were processed

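The deposited table holds 45777 genes by NCBI gene identifier and symbol for 12 libraries of polyA RNA. Its read counts were deposited by the authors as whole numbers, not normalized. Per the labels' processing notes, bcl2fastq 2.20.0, Trimmomatic, HISAT2 2.1.0 and StringTie 2.1.3b were used with the mouse build mm10 (GRCm38). StringTie estimates coverage, so the counts may have been rounded from such estimates: 49.8% of counts from 1 to 20 were even. The authors also deposited FPKM values, which correct for transcript length and library size. The TPM values that the authors deposited were used in no comparison. The methods of the study mention quantile normalization, after which all libraries would share 1 distribution, whereas the 99th percentile of FPKM ran from 108 to 158 between libraries. The labels name another sequencer than the methods do.

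A gene was tested if 3 or more libraries had a count above 0. Testing was done with edgeR 4.0.16 (R 4.3.3) by its quasi-likelihood test on the counts, with TMM factors, all 12 libraries and 1 mean per group. The 6 comparisons were adjusted by Benjamini-Hochberg over all 23585 genes. Calls needed an adjusted p under 0.05 and at least 2-fold, the interaction no fold limit. SE is the log2 fold change divided by the root of F. For 1 gene alone, the smallest p of a two-sided exact permutation of 3 against 3 libraries is 0.1. Alternatives were DESeq2 1.42.0, limma 3.58.1 on log2(FPKM + 1) or log2(FPKM + 0.1), other filters and scalings, the 6 libraries compared, the replicate block, no fold limit and each library left out. The script was tested on simulated counts.

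The members and all lists were chosen with earlier results of these data known, so no count here is independent of them. All 35 members are described. Of other lists, genes were named where a result turned on them: the most abundant marker of each other cell type, Cd3e, Cd4 and Ighm. Some genes are not reported here. Ighe, Ighg1, Ighg2c, Ighg3, Igha, Ighd, Cd8a, S100a8, Lyz2, Klra8 and the further genes of the closing section were chosen after their values were seen. Promoters and gene positions come from RefSeq (GRCm38.p6), the build of the deposited table, with positions counted from 1. Figures were drawn with matplotlib 3.10.9.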

Additional observations from a re-analysis of the deposited data

Results flagged for a closer look

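By edgeR's interaction test, adding the bacterium had another effect under FK506 than without it for the genes below (values are the combination minus both single effects added together). Among the 35 members this was Fcmr, whose combination was above the sum by 1.48 on the log2 scale (SE 0.36, adjusted p = 0.0404). The call was lost in 11 of 12 fits with a library left out.

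Outside the members, the combination was below the sum for Ighe at -4.33 (SE 0.83, adjusted p = 0.0169), which was not called without L. acidophilus replicate 2 (-4.03) or combination replicate 2 (-4.28). H2-DMa, which loads peptides on MHC class II, stood at -1.12 (SE 0.18, adjusted p = 0.0086) and held in all 12 fits with a library left out. Ikzf3, a zinc finger factor of B and T cells, stood at -1.27 (SE 0.30, adjusted p = 0.0382) and lost its call in 8 of the 12, with -1.01 to -1.35 in those, and also without TMM factors (-1.24) and in limma on log2(FPKM + 1) (-1.15) or log2(FPKM + 0.1) (-1.17). Cd4 was above the sum by 0.67 (SE 0.14, adjusted p = 0.0219), and was not called without L. acidophilus replicate 2 (0.66) or 3 (0.62), FK506 replicate 3 (0.61) or combination replicate 2 (0.70).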

How the results depend on the processing

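The counts of members called higher with FK506 (28), in the combination against anti-CD3 alone (21) or L. acidophilus (27) and lower in the combination than with FK506 (12) stayed within 1.5 times under every alternative run. With a library left out they ran from 24 to 30, 19 to 23, 27 to 28 and 8 to 13, and the members lower against anti-CD3 alone from 0 to 1 with FK506 and from 0 to 1 with L. acidophilus. The members higher in the combination than with FK506 ran from 1 to 3, and those above or below the sum of the single effects from 0 to 2 and from 0 to 2. Of all genes, 4.18 to 8.19% and 1.42 to 6.25% were called in either direction in these 2 comparisons. Without TMM factors 0 members were lower with FK506. DESeq2 called 2 members lower with L. acidophilus, 4 above and 4 below the sum, against 1.86% and 10.1% of all genes in either direction. limma on log2(FPKM + 1) called 2 above the sum, and 1 was below it by edgeR with filterByExpr or with no filter. Of all genes these fits called 7.10%, 7.10% and 3.59% in either direction for the interaction.

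With the replicate number as a block, 4 members were higher in the combination than with FK506, 3 were above and 1 was below the sum. That fit called 8.14% of all genes in either direction between the combination and FK506, and 6.69% for the interaction. The numbers are not known to pair the libraries: of 18 correlations between same-numbered libraries 12 were over 0.1 (-0.168 to 0.52), and 24 of 36 comparisons gave the best correlation to the own number. Of the genes printed, the block ended the call of Ighg1 in the combination against anti-CD3 alone (-1.26). It added calls for Cr2 with FK506 (1.67), Bank1 in the combination against anti-CD3 alone (1.28), Cr2 (1.29) and Cd72 (1.05) in the combination against FK506, Mzb1 (1.05) and Vpreb3 (2.05) against L. acidophilus, and Pou2af1 (-1.65), Cr2 (2.24) and Cd86 (1.83) against the sum.

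Without TMM factors, Fcer2a (1.01), Cd37 (1.1), Cd40 (1.02) and Tnfrsf13c (1.0) passed the 2-fold limit in the combination against anti-CD3 alone. There Cd37 was also called by limma on log2(FPKM + 1) and log2(FPKM + 0.1), and Cd40 by the latter. With FK506, Syk (0.93), Ebf1 (0.86) and Fcmr (1.0) were not called by limma on log2(FPKM + 1), nor Syk (1.05) and Bank1 (1.73) with only the 6 libraries compared.

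Signs turned for values near 0 that were not called. In the combination against anti-CD3 alone, Ebf1 was at 0.03 and 0.08 with limma (pseudocounts 1 and 0.1) and -0.47 to 0.28 with a library left out, Pou2af1 at -0.04 and -0.09 without anti-CD3 replicate 2 or 3 (highest 0.80), Cd83 at -0.13 without anti-CD3 replicate 1 (highest 0.47) and Mzb1 at -0.22 without anti-CD3 replicate 3 (highest 0.42). Against FK506 and without its replicate 3, Syk was at -0.04 (highest without another library 0.29), Swap70 at -0.12 (highest 0.16) and Ralgps2 at -0.14 (highest 0.16), and Ralgps2 at -0.06 without combination replicate 1. Ms4a1 was at 0.10 with L. acidophilus without its replicate 3 (lowest -0.44), and Cd4 at 0.0 with FK506 under limma. The cause was not tested. Without TMM factors the median of all genes moved to 0.228, 0.125 and 0.132 in the combination against anti-CD3 alone, FK506 and L. acidophilus, and to 0.111 in the first with limma (pseudocount 0.1). Low counts limit Fcrla, Cr2 and Vpreb3, Ighe in the combination and Cd180 in the groups without FK506, among others.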
